A study of Mus musculus with 16 samples.

Results

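Goblet cells are the mucus-secreting cells of the intestinal epithelium. They arise from secretory progenitors in which the transcription factor ATOH1 is active, and SPDEF then drives their maturation. The gel-forming mucin MUC2 is packed into apical granules with trefoil factor 3, CLCA1, FCGBP and ZG16, and release of these granules builds the mucus that covers the jejunum. Myosin Vb (MYO5B) is a motor protein that moves recycling vesicles to the apical membrane of epithelial cells, and its loss causes microvillus inclusion disease, a congenital diarrheal disorder.

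The 10 genes described here, Muc2, Tff3, Spdef, Fcgbp, Clca1, Agr2, Zg16, Spink4, Atoh1 and Muc13, were chosen by name from the 54532 genes of the deposited count table, and each symbol matched 1 row. On GRCm38 the table places Clca1 at chr3:145003817-145032776 (- strand), Fcgbp at chr7:28071236-28120862 (+ strand), Muc2 at chr7:141690340-141754693 (+ strand), Agr2 at chr12:35992907-36004087 (+ strand) and Spink4 at chr4:40920052-40931395 (+ strand), and values are counts over the whole gene. Their RNA was measured by poly-A RNA sequencing in 16 cultures of mouse jejunal enteroids, which are 3-dimensional epithelial cultures grown from crypts. Each of the 4 groups held 4 cultures, which are described as coming from different mice within a group. Whether cultures of different groups shared a donor mouse is not stated. All cultures were passaged in growth medium and then kept in a differentiation medium that contained Noggin and R-spondin but lacked Wnt ligands and EGF.

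The MYO5BΔIEC enteroids came from adult Vil-CreERT2;Myo5b-flox/flox mice and received 1 µM 4-OH-tamoxifen for 24 h in culture, followed by the PBS vehicle for 2 days. The MYO5B(G519R) enteroids carried Vil-CreERT2 with 1 floxed allele and 1 allele with the G519R point mutation, and were given the same tamoxifen exposure with no further treatment listed. Compound-1-treated MYO5BΔIEC enteroids received 100 nM of this synthetic agonist, which prefers the lysophosphatidic acid receptor LPAR5, for 2 days in differentiation medium. The controls carry no genotype beyond "Control" in the sample records. The methods derive them from the same flox/flox line and name ethanol as the vehicle of the induction step, whereas a figure legend calls them healthy littermates, so an effect of 4-OH-tamoxifen or of active Cre cannot be told apart from an effect of MYO5B. In this model the Villin promoter limits Cre to epithelial cells, and induction is meant to leave the MYO5B(G519R) cultures with only the mutant allele.

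The control libraries held 31684240 to 36920083 counts each. The MYO5BΔIEC libraries held 27804968 to 31999244, the MYO5B(G519R) libraries 31466387 to 34448343, and those of the Compound-1-treated cultures 29060547 to 40101729. Myo5b itself was checked before any comparison. It stood at 160, 230, 191 and 176 CPM (counts scaled to the library size with TMM factors) in the controls, at 135, 109, 170 and 101 CPM in MYO5BΔIEC, at 139, 153, 173 and 136 CPM in MYO5B(G519R), and at 149, 106, 87.2 and 101 CPM in the Compound-1-treated cultures. The MYO5BΔIEC and control ranges overlapped (log2 fold change -0.55 ± 0.19 SE, edgeR adjusted p = 0.0503). Those of MYO5B(G519R) and control overlapped too (-0.33 ± 0.14, edgeR adjusted p = 0.109). The Compound-1-treated cultures lay below all controls (-0.77 ± 0.19, edgeR adjusted p = 0.0146). A count over the whole gene also reads the exons that Cre leaves in place, and therefore does not measure how complete the deletion was.

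Control culture 1 stood apart from its group. Its log2 CPM correlated with those of the other controls at r = 0.926 to 0.935 over 13545 genes, against 0.980 to 0.989 among controls 2 to 4, and with those of the 12 cultures of the other groups at 0.865 to 0.950, so it was no closer to its own group than to several of these. Its mitochondrially encoded genes took 6.41% of counts, against 9.07% to 10.4% in the other controls and 3.79% to 6.63% in the 12 cultures of the other groups. This share therefore moved with the contrast to control, and with these genes left out of the library sizes the same number of goblet cell genes was called in each comparison. The summed level of 16 enterocyte markers was 5162 CPM in this culture and 16122 to 20635 CPM in the others, with the sucrase-isomaltase gene Sis as the most abundant member on average over the 16 cultures, and the summed level of 12 tuft cell markers was 84.2 CPM against 28.8 to 37.9 CPM. Results that rest on this culture are therefore given with and without it.

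The enteroids were epithelial by their markers. The summed level of 9 epithelial genes, led by Krt8, lay between 6873 and 16974 CPM in all 16 cultures, whereas 14 fibroblast, endothelial and immune markers together reached 3.36 to 10.9 CPM, most of it from Cd68, and 6 to 10 of the 14 had a count of 0 in a given culture. All 10 goblet cell genes were detected in all 16 cultures, with the lowest value at 114 counts, for Zg16 in control culture 1. Together they took 0.227% to 0.247% of all counts in a control culture. Their share was 0.297% to 0.361% with MYO5BΔIEC and 0.273% to 0.329% with MYO5B(G519R), and with Compound-1 it was 0.311% to 0.705%. Fcgbp carried the difference between the MYO5B models and control, since the other 9 genes took 0.158% to 0.220% in the controls, 0.168% to 0.221% with MYO5BΔIEC and 0.148% to 0.202% with MYO5B(G519R). In bulk RNA, fewer goblet cells and less RNA per goblet cell cannot be told apart.

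Promoter windows of 300 bases, from 250 bases before to 50 bases after the annotated start, were found in the RefSeq table of build GRCm38.p6 for 6 of the 10 genes. Those of Fcgbp and Muc2, which varied together across the cultures, and of Agr2, which moved the other way, are shown on the strand of the gene. Capitals mark every match, on either strand, to 1 of 7 short motifs. These are CAGCTG and CAGATG of the E-box type, which factors such as ATOH1 bind, CCGGAT of the SPDEF type, TGTTTAC of the FOXA type, TTTATT and TTTATG of the CDX2 type, and CCACCC of the KLF type. The Fcgbp window lies at chr7:28070986-28071285 (+ strand), the Muc2 window at chr7:141690090-141690389 (+ strand) and the Agr2 window at chr12:35992675-35992974 (+ strand).
Fcgbp: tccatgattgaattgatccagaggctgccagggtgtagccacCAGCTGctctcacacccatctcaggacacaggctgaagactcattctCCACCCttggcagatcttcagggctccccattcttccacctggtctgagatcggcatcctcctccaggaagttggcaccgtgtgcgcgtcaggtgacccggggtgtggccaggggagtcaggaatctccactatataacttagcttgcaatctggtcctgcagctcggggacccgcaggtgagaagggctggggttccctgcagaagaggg
Muc2: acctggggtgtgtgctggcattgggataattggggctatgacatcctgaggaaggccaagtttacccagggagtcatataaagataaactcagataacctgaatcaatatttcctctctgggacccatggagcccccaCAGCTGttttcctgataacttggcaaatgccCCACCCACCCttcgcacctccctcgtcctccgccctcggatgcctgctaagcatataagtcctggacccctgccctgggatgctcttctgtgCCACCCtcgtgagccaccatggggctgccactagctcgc
Agr2: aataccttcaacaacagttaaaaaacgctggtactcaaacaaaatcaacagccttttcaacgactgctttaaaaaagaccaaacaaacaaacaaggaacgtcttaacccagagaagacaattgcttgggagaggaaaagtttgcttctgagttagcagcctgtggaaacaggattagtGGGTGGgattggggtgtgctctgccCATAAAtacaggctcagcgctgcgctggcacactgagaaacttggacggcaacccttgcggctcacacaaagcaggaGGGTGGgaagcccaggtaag
The Muc2 and Fcgbp windows each held 1 CAGCTG, at 112 and 208 bases before the start, and this motif was present in 16.3% of all 32851 promoter windows. CCACCC or its complement GGGTGG, present in 31.5% of all windows, occurred 3 times in the Muc2 window with 2 of the matches overlapping, 1 time in that of Fcgbp and 2 times in that of Agr2. The Agr2 window also held CATAAA, the complement of TTTATG, which 11.9% of windows contain. The Spdef window held 1 TTTATG, the first of 2 Muc13 windows held 1 CATCTG and 1 CATAAA, and the Atoh1 window held none of the 7 motifs. A match of letters is a description of the sequence and not a bound site. Tff3, Clca1, Zg16 and Spink4 were not matched in the table.

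Compared per length, the small secreted peptides were the most abundant. In the controls, mean FPKM (fragments per kilobase of gene length, scaled to the library size) was 1259 ± 321 (SD, n = 4) for Tff3, the trefoil peptide that supports epithelial repair, and 1017 ± 101 for Spink4, a Kazal-type protease inhibitor, and their ranges overlapped. Muc13, a transmembrane mucin that enterocytes also express, had 197 ± 76.0 FPKM and Agr2, the protein disulfide isomerase needed for MUC2 folding, had 186 ± 24.3 FPKM, again with overlapping ranges. The lectin gene Zg16 stood at 45.9 ± 29.9 and Fcgbp, which encodes an IgG Fc-binding mucus protein, at 43.0 ± 27.4 FPKM. The metalloprotease gene Clca1 had 9.63 ± 0.391 FPKM. Muc2 had 10.8 ± 9.69 FPKM, a mean raised by the 25.3 FPKM of control culture 1, and stood at 5.17 to 6.54 FPKM in controls 2 to 4. The transcription factor genes had 6.92 ± 1.69 FPKM for Spdef and 6.52 ± 1.06 FPKM for Atoh1, and the ranges of Muc2, Spdef and Atoh1 overlapped.

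**Figure D1:**
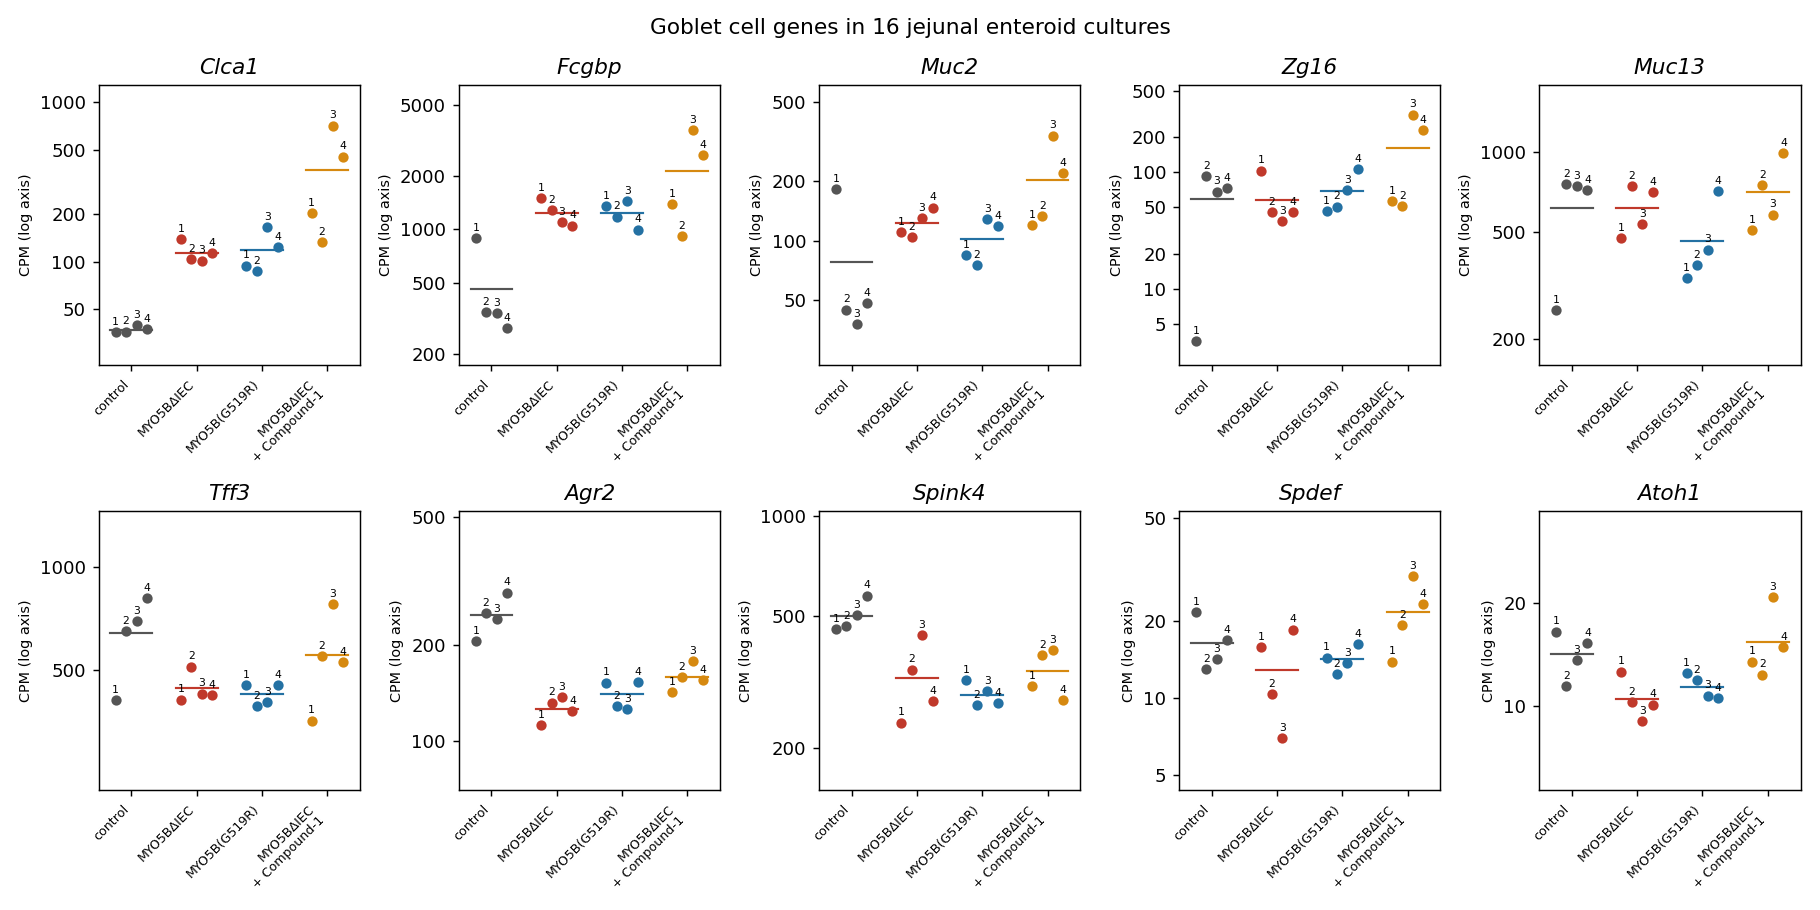
Level of each goblet cell gene in CPM (log axis, 1 panel per gene) in the 16 cultures, by group. Points are cultures marked with their number and bars are group means. Clca1 lies between 36.03 and 39.7 CPM in the controls and at or above 87.5 CPM in every other culture.

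The question of the main comparisons was which goblet cell transcripts depend on functional MYO5B. In MYO5BΔIEC against control, the transcripts of the mucus components Clca1 and Fcgbp rose 3.06-fold and 2.68-fold. Those of the MUC2-folding enzyme Agr2 and the inhibitor Spink4 fell, the latter with a call that was lost once a trend on gene length was removed. Those of the lineage factors Atoh1 and Spdef did not pass the test. In comparisons with these controls, an effect of 4-OH-tamoxifen or active Cre cannot be told apart from one of MYO5B. At an edgeR quasi-likelihood adjusted p under 0.05, 4 of the 10 genes were called in MYO5BΔIEC against control, 2 of them higher and 2 lower, where 27.4% of the 17951 genes tested were called (13.5% higher and 13.8% lower). The point mutant had 5 of 10 called against control, 2 higher and 3 lower, where 26.8% of 17829 genes were called (13.1% higher and 13.7% lower). In each comparison 4 of the 10 had groups that did not overlap, where 26.9% and 27.4% of all genes did not. The median log2 fold change of the 10 genes was -0.18 and -0.27 in these comparisons, against -0.01 and -0.05 over all genes tested. With the trend on gene length removed it was 0.23 and 0.01, and in MYO5BΔIEC it was -0.30 without control culture 1, -0.46 without MYO5BΔIEC culture 1 and -0.04 without MYO5BΔIEC culture 3. Both comparisons use the same 4 controls, so their agreement on a gene does not come from separate controls.

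Clca1 encodes a secreted metalloprotease that processes the MUC2 network. Its level was 36.03, 36.3, 39.7 and 37.6 CPM in the controls, 138, 104, 101 and 112 CPM in MYO5BΔIEC, and 94.3, 87.5, 165 and 123 CPM in MYO5B(G519R). Every mutant culture lay above every control, and the controls differed little from each other. The log2 fold change was 1.61 ± 0.14 (SE) in MYO5BΔIEC (edgeR adjusted p = 0.000614), or 3.06-fold, and 1.65 ± 0.19 in MYO5B(G519R) (edgeR adjusted p = 0.00182), or 3.14-fold. Both calls held with any 1 culture left out.

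Fcgbp encodes a large mucus protein that is bound to MUC2. It stood at 889, 341, 339 and 277 CPM in the controls, at 1493, 1278, 1099 and 1046 CPM in MYO5BΔIEC, and at 1346, 1177, 1438 and 993 CPM in MYO5B(G519R). The groups did not overlap, although control culture 1 came close to the lowest mutant culture. Fcgbp changed by 1.42 ± 0.34 on the log2 scale in MYO5BΔIEC (edgeR adjusted p = 0.0127) and 1.42 ± 0.35 in MYO5B(G519R) (edgeR adjusted p = 0.0154). The MYO5B(G519R) call was lost without control culture 3 (edgeR adjusted p = 0.0511). Leaving out control culture 1 gave log2 fold changes of 1.95 and 1.99.

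Muc2, the gel-forming mucin itself, depended on control culture 1. Its level was 182, 44.95, 38.0 and 48.4 CPM in the controls, 110, 104, 130 and 147 CPM in MYO5BΔIEC, and 84.8, 75.3, 129 and 119 CPM in MYO5B(G519R). All mutant cultures lay above controls 2 to 4 and below control 1. With all controls the log2 fold change was 0.66 ± 0.44 (edgeR adjusted p = 0.30) in MYO5BΔIEC and 0.38 ± 0.47 (edgeR adjusted p = 0.591) in MYO5B(G519R). The log2 fold change went as low as 0.43 and 0.15 with 1 culture left out. Without control culture 1 it was 1.49 (edgeR adjusted p = 4.92e-05) and 1.25 (edgeR adjusted p = 0.000378), and in that setting 6 and 7 of the 10 genes were called, 3 of them higher in each comparison, where 7474 and 8146 genes were called in all.

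Agr2 resides in the endoplasmic reticulum and forms mixed disulfides with MUC2 during folding. Its level was 206, 250.8, 241 and 291 CPM in the controls, 113, 132, 137 and 124 CPM in MYO5BΔIEC, and 152, 129, 126 and 153 CPM in MYO5B(G519R). The mutant cultures lay below all controls. Agr2 had a log2 fold change of -0.96 ± 0.15 in MYO5BΔIEC (edgeR adjusted p = 0.00207) and -0.82 ± 0.14 in MYO5B(G519R) (edgeR adjusted p = 0.00352), and both calls held with any 1 culture left out.

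Spink4 stood at 455, 466, 500.5 and 574 CPM in the controls, at 239, 344, 437 and 277 CPM in MYO5BΔIEC, and at 320, 269, 296 and 274 CPM in MYO5B(G519R). The groups did not overlap, with MYO5BΔIEC culture 3 closest to the controls. The log2 fold change was -0.62 ± 0.20 in MYO5BΔIEC (edgeR adjusted p = 0.0402) and -0.78 ± 0.13 in MYO5B(G519R) (edgeR adjusted p = 0.00326). The MYO5BΔIEC call was lost when control culture 2, 3 or 4 or MYO5BΔIEC culture 1, 2 or 4 was left out, with adjusted p from 0.0717 to 0.113. The MYO5B(G519R) call held with any 1 culture left out.

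Tff3 was at 407, 649, 693 and 810 CPM in the controls, at 408, 510, 425 and 422 CPM in MYO5BΔIEC, and at 451, 390, 401 and 451 CPM in MYO5B(G519R). Control culture 1 lay among or just below the mutant cultures, and controls 2 to 4 lay above them. For Tff3 the log2 fold change was -0.53 ± 0.21 in MYO5BΔIEC (edgeR adjusted p = 0.0821) and -0.60 ± 0.20 in MYO5B(G519R) (edgeR adjusted p = 0.0474). The MYO5B(G519R) call was lost when any culture other than control 1 was left out, with adjusted p from 0.0735 to 0.131. Leaving out control culture 1 gave log2 fold changes of -0.69 (edgeR adjusted p = 0.00193) and -0.73 (edgeR adjusted p = 0.000438).

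Zg16, which encodes a lectin that binds Gram-positive bacteria in mucus, had the widest range. Its level was 3.57, 93.1, 68.3 and 73.5 CPM in the controls, 103, 45.7, 38.0 and 45.3 CPM in MYO5BΔIEC, and 46.7, 50.9, 70.8 and 107 CPM in MYO5B(G519R). The groups overlapped throughout. The log2 fold change was -0.03 with a 95% confidence interval from -1.52 to 1.46 in MYO5BΔIEC and 0.21, from -1.30 to 1.71, in MYO5B(G519R), so changes of more than 2-fold in either direction lie within the error. Without control culture 1 it was -0.42 (edgeR adjusted p = 0.293) and -0.16 (edgeR adjusted p = 0.636).

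Muc13 stood at 257, 757, 742 and 718 CPM in the controls, at 475, 744, 536 and 709 CPM in MYO5BΔIEC, and at 337, 376, 432 and 712 CPM in MYO5B(G519R). The low control was culture 1, whose enterocyte marker sum was also lowest. The log2 fold change was 0.00 ± 0.31 in MYO5BΔIEC (edgeR adjusted p = 0.999) and -0.41 ± 0.35 in MYO5B(G519R) (edgeR adjusted p = 0.409). Without control culture 1, MYO5B(G519R) had a log2 fold change of -0.64 (edgeR adjusted p = 0.0329).

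The lineage factors were measured at low levels and overlapped between groups. Atoh1, the determinant of secretory fate, had 16.5, 11.4, 13.6 and 15.3 CPM in the controls, 12.6, 10.2, 8.99 and 10.1 CPM in MYO5BΔIEC, and 12.5, 11.9, 10.7 and 10.5 CPM in MYO5B(G519R). Its log2 fold change was -0.43, with a 95% confidence interval from -0.82 to -0.04 (edgeR adjusted p = 0.0933), and -0.32, from -0.66 to 0.02 (edgeR adjusted p = 0.143). Spdef, which acts downstream in goblet maturation, had 21.5, 12.9, 14.2 and 16.8 CPM in the controls, 15.7, 10.3, 6.97 and 18.4 CPM in MYO5BΔIEC, and 14.3, 12.3, 13.7 and 16.1 CPM in MYO5B(G519R). Its log2 fold change was -0.34, from -0.98 to 0.30 (edgeR adjusted p = 0.421), and -0.21, from -0.61 to 0.18 (edgeR adjusted p = 0.409). With 1 culture left out, Spdef ranged from -0.56 to -0.14 in MYO5BΔIEC and from -0.31 to -0.02 in MYO5B(G519R), and was never called. In MYO5B(G519R) the largest edgeR adjusted p, 0.923, came without control culture 1.

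**Figure D2:**
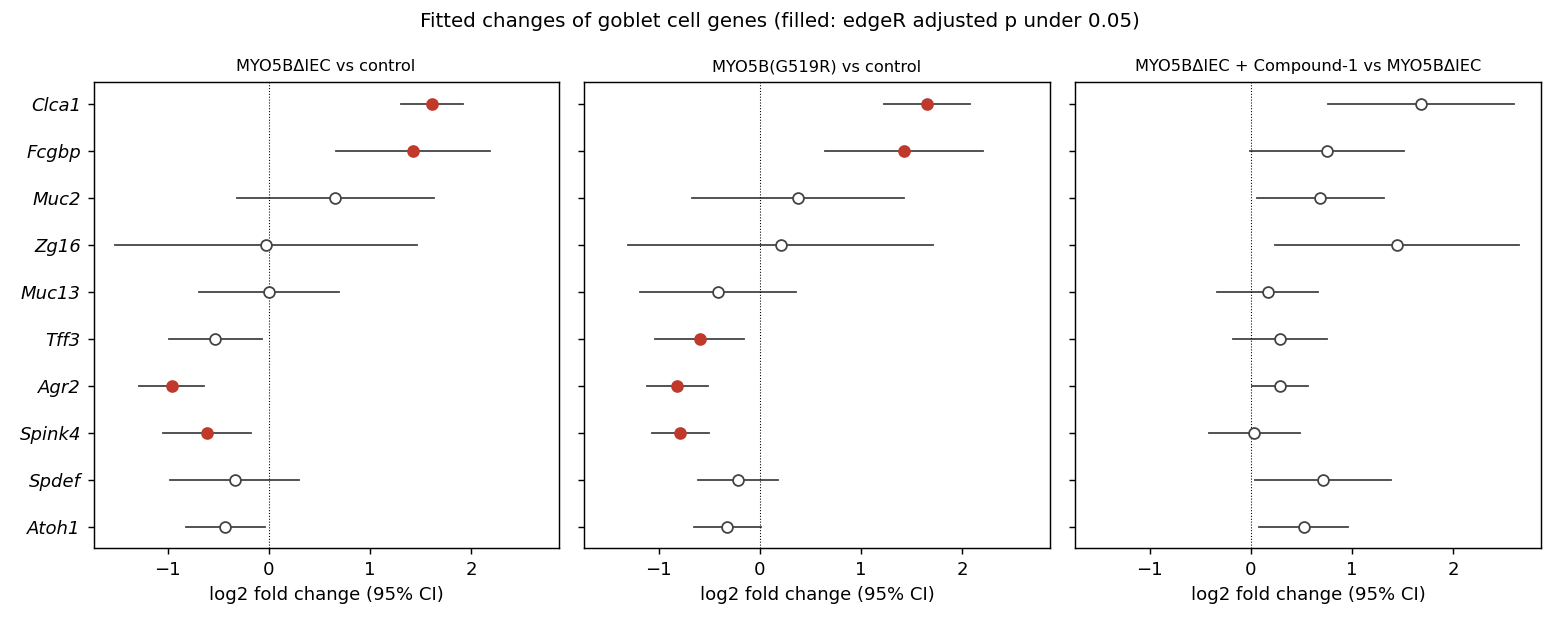
Fitted log2 fold change with its 95% confidence interval for the 10 goblet cell genes in 3 comparisons of 4 against 4 cultures, with filled points at an edgeR adjusted p under 0.05. Clca1 and Fcgbp are filled to the right of 0 and Agr2 and Spink4 to the left in both MYO5B models, and no gene is filled for Compound-1 against its vehicle.

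The genes that rose are long and those that fell are short. Clca1 has a gene length of 3777 bases and Fcgbp 10497 bases in the count table, against 1291 for Agr2, 493 for Tff3 and 477 for Spink4. Over all genes tested, the log2 fold change correlated with gene length at Spearman rho = 0.286 in MYO5BΔIEC and 0.294 in MYO5B(G519R), a description across genes that share the same libraries. Within cultures, the deviation of a gene from its mean level correlated with length at rho = -0.361 to -0.397 in controls 2 to 4 and at 0.0977 in control 1. The MYO5BΔIEC cultures had values of 0.121 to 0.240 and the MYO5B(G519R) cultures of -0.108 to 0.335. Those of the Compound-1-treated cultures were 0.330, -0.164, 0.185 and 0.195. Genes were therefore refitted with a smooth trend on length removed from each culture.

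After this step the higher calls stayed and the lower calls thinned. The log2 fold changes of Clca1 were 1.61 for the deletion and 1.64 for the point mutation, and those of Fcgbp 1.24 and 1.28, with all 4 calls kept. Agr2 fell by less, at -0.54 (edgeR adjusted p = 0.0120) and -0.47 (edgeR adjusted p = 0.00861). Spink4 turned to 0.17 (edgeR adjusted p = 0.646) in MYO5BΔIEC and stood at -0.12 (edgeR adjusted p = 0.700) in MYO5B(G519R), and Tff3 turned to 0.30 and 0.13, neither called. The split of called genes was then 2 higher and 1 lower in each comparison, against a background of 26.8% and 27.5%.

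**Figure D3:**
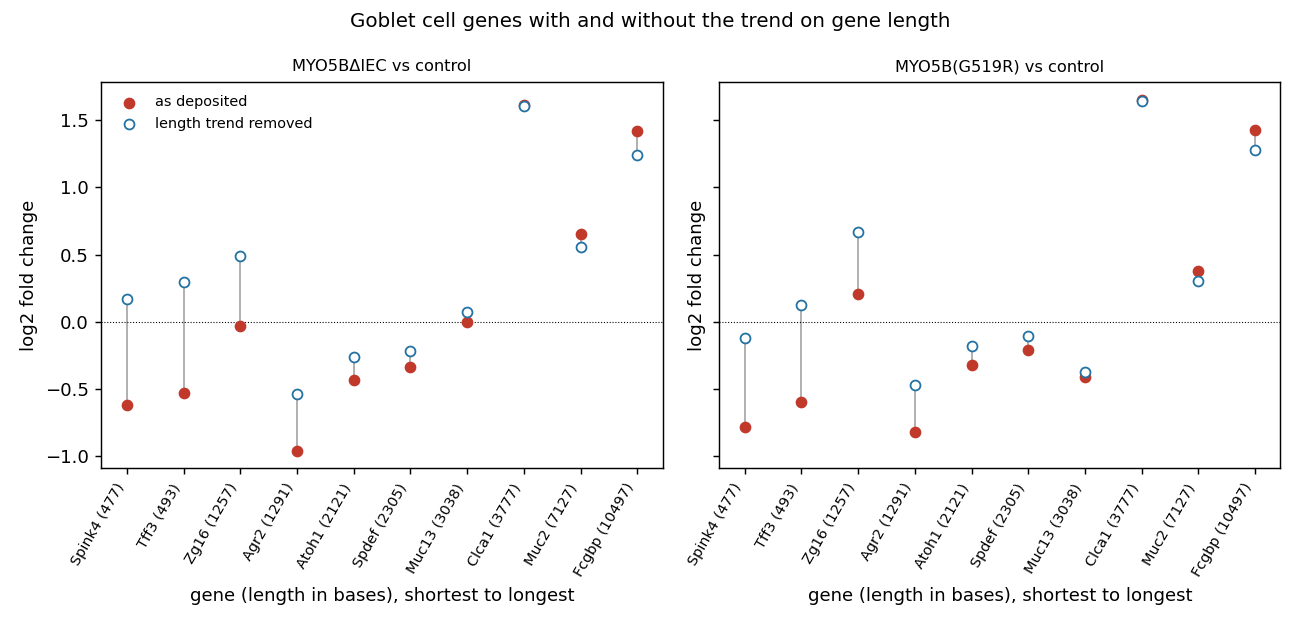
Log2 fold change of each goblet cell gene against control, ordered by gene length in bases, as deposited (filled) and with the length trend of each culture removed (open). Spink4 and Tff3, the shortest genes, move from below 0 to near or above it, whereas Clca1 stays at 1.61 and 1.64.

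MYO5B(G519R) and MYO5BΔIEC were compared directly to ask whether the point mutation differs from the induced deletion. None of the 10 genes was called, none had an unadjusted p under 0.05, and DESeq2 called none. Of 17943 genes tested, 1 was called (0.00557%), 4.30% had an unadjusted p under 0.05 and DESeq2 called 4 (0.0223%). The difference in log2 level was 0.04 for Clca1 (95% confidence interval from -0.37 to 0.46), 0.01 for Fcgbp (-0.35 to 0.36), 0.15 for Agr2 (-0.09 to 0.38), -0.27 for Muc2 (-0.66 to 0.12) and -0.41 for Muc13 (-0.93 to 0.11). These intervals do not show that the 2 models act alike.

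Compound-1 was given to MYO5BΔIEC enteroids to ask what LPAR5 activation changes. All 10 goblet cell genes had a positive log2 fold change against vehicle-treated MYO5BΔIEC, with a median of 0.61 against 0.00 over all genes, but none was called. Without treated culture 3 the median was 0.34, and 9 of the 10 were positive without treated culture 2, 3 or 4 or vehicle culture 1 or 4. edgeR called 0 of 18037 genes (0.00%) at an adjusted p under 0.05. At an unadjusted p under 0.05 it counted 6 of the 10 genes and 7.51% of all genes. DESeq2 called 91 genes (0.505%), among them Clca1. Markers of other cell types leaned the other way, also with none called, as 14 of 16 enterocyte markers (median -0.55), 7 of 9 tuft cell markers (-0.72) and 8 of 9 stem cell markers (-0.23) had negative log2 fold changes. Their part in the goblet cell values was not tested.

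The spread within the treated group was wide, and cultures 3 and 4 stood highest for Clca1, Fcgbp, Muc2 and Zg16. Clca1 stood at 201, 133, 712 and 455 CPM in the Compound-1-treated cultures, against 101 to 138 CPM with vehicle. Culture 1 was above the vehicle range too, and culture 2 lay just inside it. The log2 fold change was 1.69 ± 0.42 (edgeR adjusted p = 0.532, DESeq2 adjusted p = 0.0180), and it was 1.18 without culture 3 and 1.58 without culture 4.

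Fcgbp was at 1384, 917, 3593 and 2598 CPM, Muc2 at 120, 133, 338 and 218 CPM, and Zg16 at 56.7, 51.5, 313 and 230 CPM in the treated cultures. Cultures 3 and 4 were the highest of all 16 cultures for these 3 genes as for Clca1, and cultures 1 and 2 lay within or just below the vehicle range. The log2 fold changes against vehicle were 0.75 ± 0.35 for Fcgbp, 0.69 ± 0.29 for Muc2 and 1.45 ± 0.55 for Zg16, with edgeR adjusted p of 0.676, 0.624 and 0.591, and they were 0.38, 0.33 and 0.92 without culture 3. Spdef, at 13.8, 19.2, 29.8 and 23.2 CPM, and Atoh1, at 13.5, 12.3, 20.8 and 14.9 CPM, also peaked in culture 3.

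Agr2 was the only gene of the 10 whose groups did not overlap, where 2.86% of all genes did not. It was at 142, 158, 178 and 155.5 CPM with Compound-1 against 113 to 137 CPM with vehicle, and its log2 fold change was 0.29, with a 95% confidence interval from 0.02 to 0.57 (edgeR adjusted p = 0.650). Tff3 stood at 354, 546, 775 and 527 CPM, Spink4 at 307, 380, 395 and 278 CPM and Muc13 at 511, 751, 583 and 985 CPM in the treated cultures. For these 3 genes the log2 fold changes were 0.29 ± 0.21, 0.04 ± 0.20 and 0.17 ± 0.23.

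Other markers also set treated culture 3 apart. Its 10 proliferation markers summed to 940 CPM against 1628 to 1814 CPM in the other treated cultures, its 9 stem cell markers to 1517 against 2383 to 3223 CPM, and its 9 epithelial genes to 16974 against 10801 to 14293 CPM. By these sums culture 4, at 1628, 2383 and 13151 CPM, lay nearer to cultures 1 and 2. Over 13545 genes, however, the log2 CPM of culture 4 correlated most with that of culture 3. There r was 0.974, against 0.970 with culture 1 and 0.964 with culture 2. Whether these marker levels bear on the goblet cell genes was not tested.

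Against the controls, Compound-1-treated MYO5BΔIEC enteroids had 4 of the 10 genes called, 2 higher and 2 lower, where 29.4% of 17937 genes were called (15.7% higher and 13.7% lower). Clca1 was 10.04-fold higher (log2 fold change 3.33 ± 0.46, edgeR adjusted p = 0.00398) and Fcgbp 4.60-fold higher (2.20 ± 0.49, edgeR adjusted p = 0.00967). Agr2, at -0.64 ± 0.15 (edgeR adjusted p = 0.0122), and Spink4, at -0.55 ± 0.17 (edgeR adjusted p = 0.0324), were below control. Muc2 had a log2 fold change of 1.37 ± 0.52 that did not pass the test (edgeR adjusted p = 0.0721, DESeq2 adjusted p = 0.0184), and of 2.23 (edgeR adjusted p = 0.00111) without control culture 1. With the length trend removed the split was 2 higher and 0 lower (background 29.8%), with Agr2 at -0.21 (edgeR adjusted p = 0.274) and Spink4 at 0.25 (edgeR adjusted p = 0.396). Spink4 also lost its call when control culture 2, 3 or 4 or treated culture 1 or 4 was left out, with adjusted p from 0.0613 to 0.107. Markers of other cell types moved in this comparison too. Of these, 6 of 9 tuft cell and 4 of 10 proliferation markers were called lower and 6 of 9 epithelial genes higher, with 0 the other way. Of 16 enterocyte markers, 3 were higher and 4 lower. With 1 culture left out these 4 counts were 2 to 6, 2 to 5, 4 to 7 and 3 to 8. Their part in the goblet cell values was not tested.

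The 10 genes fell into groups by how they varied across the 16 cultures. Pearson r of log2 CPM was 0.89 between Fcgbp and Clca1, 0.86 between Muc2 and Fcgbp, 0.78 between Muc2 and Clca1, 0.86 between Agr2 and Spink4, 0.76 between Tff3 and Agr2 and 0.78 between Spdef and Atoh1. Between the set of Muc2, Fcgbp and Clca1 and that of Tff3, Agr2 and Spink4 it was negative. It was strongest at -0.70 between Fcgbp and Agr2 and -0.65 between Fcgbp and Spink4. For Tff3 it was weaker, at -0.37 with Fcgbp, -0.25 with Muc2 and -0.08 with Clca1. With group means subtracted, r was 0.79 for Muc2 and Fcgbp, 0.70 for Fcgbp and Clca1, 0.82 for Tff3 and Agr2 and -0.28 for Fcgbp and Agr2. The sets were then less distinct, as r fell to 0.51 for Muc2 and Clca1 and to 0.46 for Tff3 and Spink4, and was 0.40 for Clca1 and Tff3 and 0.15 for Clca1 and Agr2. These values describe 16 cultures that share libraries and the length trend, and carry no test.

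**Figure D4:**
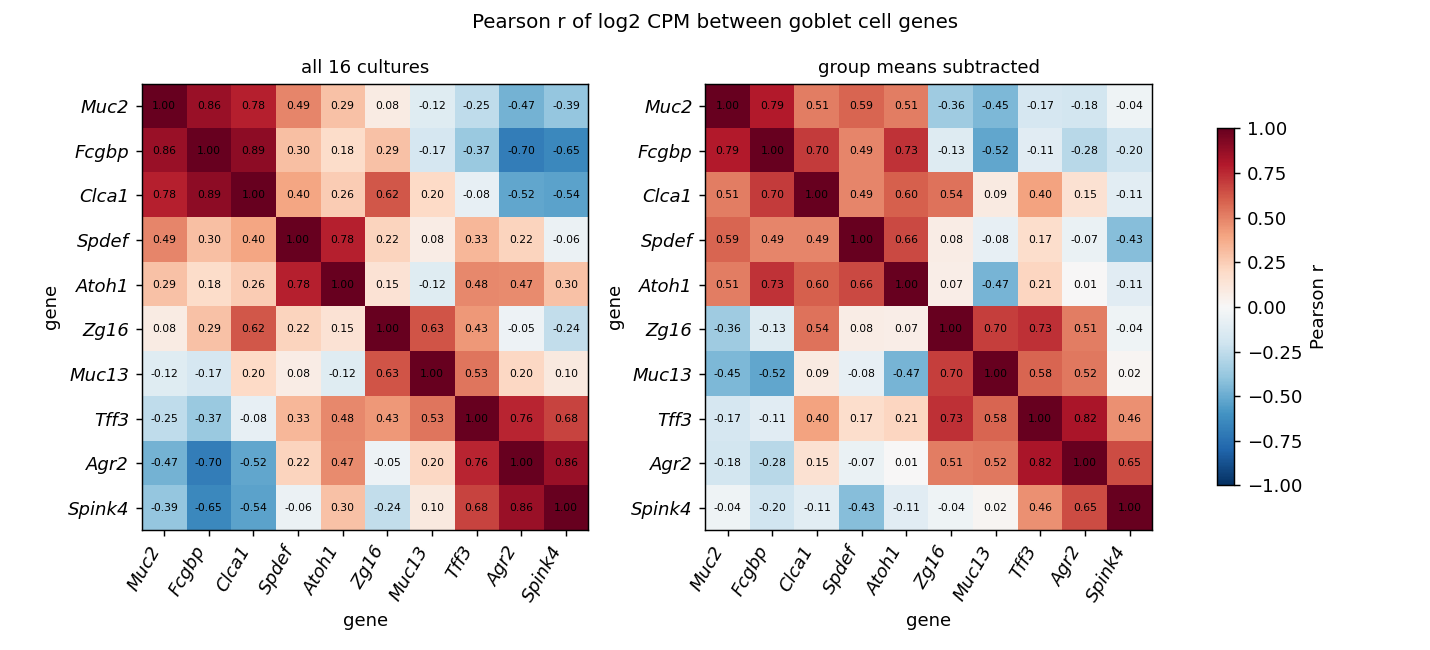
Pearson r of log2 CPM for each pair of goblet cell genes over 16 cultures (left) and with group means subtracted (right), on a colour scale from -1 to 1. Muc2, Fcgbp and Clca1 form 1 block at 0.78 to 0.89 on the left, and Tff3, Agr2 and Spink4 another at 0.68 to 0.86.

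Among 16382 other genes with at least 10 counts in 8 cultures, the patterns most like that of Muc2 were those of Klf3 (r = 0.966), Klf5 (0.961), Cdk13, Snx33, Vangl1, Osbpl11, Nrip1, Ets2, Trib1 and Mfsd6, down to r = 0.945. All 10 are 4571 bases or longer. Klf5, Klf3, Snx33, Trib1 and Vangl1 were also among the 10 nearest when group means were subtracted. Fcgbp ranked 347th and Clca1 1199th by this measure, and 465th and 2620th with group means subtracted, whereas Tff3, Agr2, Spink4 and Muc13 correlated negatively with Muc2.

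The wider goblet program was read from lists that do not contain the 10 genes. Of 21 other goblet cell markers tested, 5 were higher and 4 lower in MYO5BΔIEC, and 4 higher and 6 lower in MYO5B(G519R), where 27.4% and 26.8% of all genes were called, with median log2 fold changes of 0.00 and -0.10. Bace2, which encodes an aspartyl protease, rose (log2 fold change 1.35 ± 0.19, edgeR adjusted p = 0.00174, and 1.27 ± 0.27, edgeR adjusted p = 0.00802), and the kallikrein gene Klk1 fell (-2.03 ± 0.28, edgeR adjusted p = 0.00168, and -1.80 ± 0.34, edgeR adjusted p = 0.00525). Klk1 was at 21.9 to 56.2 CPM in the control cultures and at 6.45 to 17.7 CPM in the 8 mutant cultures. Without control culture 1 the counts were 6 higher and 8 lower in MYO5BΔIEC and 6 and 9 in MYO5B(G519R), in a setting where the calls over all genes had also risen, to 7474 and 8146. The MYO5B(G519R) count fell to 5 genes when control 3 or 4 or MYO5B(G519R) culture 1, 2 or 3 was left out. The MYO5B(G519R) split was 4 and 4 with the length trend removed, and the medians were 0.18 and -0.06.

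Of 6 other mucin genes tested, 2 rose in MYO5BΔIEC and 3 in MYO5B(G519R), and none fell, where 13.5% and 13.1% of all genes were called higher. The first count was 1 without control 3 or 4 or without MYO5BΔIEC culture 1, 2 or 3. Muc4, a transmembrane mucin, was at 41.9 to 65.0 CPM in control cultures, at 60.8 to 184 CPM with MYO5BΔIEC and at 80.6 to 153 CPM with MYO5B(G519R). Its log2 fold changes were 1.35 ± 0.29 (edgeR adjusted p = 0.00768) and 1.35 ± 0.22 (edgeR adjusted p = 0.00318). Muc3 and Muc3a are near copies between which reads may be split, and their separate values are uncertain.

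Genes of mucin O-glycosylation, which attach the sugars that hold water in mucus, were called 6 higher and 2 lower of 26 in MYO5BΔIEC, and 6 higher and 1 lower in MYO5B(G519R), with medians of 0.10 and 0.18. These counts lie near the shares of 27.4% and 26.8% called over all genes. B3gnt7, an N-acetylglucosaminyltransferase, was at 12.1 to 20.1 CPM in control cultures and 28.7 to 37.2 CPM in all 8 mutant cultures, and rose by 1.09 ± 0.17 in MYO5BΔIEC (edgeR adjusted p = 0.00207). Gcnt3, which makes core 2 and core 4 branches, rose by 0.96 ± 0.15 in MYO5B(G519R) (edgeR adjusted p = 0.00316), as did Slc35c1, the GDP-fucose transporter of the Golgi (0.87 ± 0.12, edgeR adjusted p = 0.00204). C1galt1c1, the chaperone of core 1 synthase, fell by 0.83 ± 0.18 (edgeR adjusted p = 0.00770) and 0.82 ± 0.16 (edgeR adjusted p = 0.00626). With the length trend removed the MYO5B(G519R) split was 6 and 4, and without control culture 1 each comparison had 15 genes called, 9 and 11 of them higher, beside 7474 and 8146 calls over all genes. Without MYO5BΔIEC culture 2 the MYO5BΔIEC count was 5.

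Among 17 regulators of secretory lineages, 3 were higher and 2 lower in MYO5BΔIEC and 4 higher and 1 lower in MYO5B(G519R), again near the 27.4% and 26.8% of all genes. Klf4, a factor of terminal goblet differentiation, rose by 1.06 ± 0.20 in MYO5BΔIEC (edgeR adjusted p = 0.00477), and Sox9, a factor of progenitors and Paneth cells, rose by 0.63 ± 0.15 (edgeR adjusted p = 0.0110) and 0.60 ± 0.14 (edgeR adjusted p = 0.0137). Creb3l4, a membrane-bound factor of the secretory pathway, fell by 1.05 ± 0.24 (edgeR adjusted p = 0.00974) and 1.00 ± 0.17 (edgeR adjusted p = 0.00368). The MYO5BΔIEC split was 3 and 1 with the length trend removed. It was 5 and 3 without control culture 1, and 2 and 1 without control 3, control 4 or MYO5BΔIEC culture 2.

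Genes of protein folding and export in the endoplasmic reticulum, the machinery on which mucin secretion depends, were mostly lower where they were called. Of 27 genes in this list, 11 fell and 1 rose in MYO5BΔIEC, and 11 fell and 2 rose in MYO5B(G519R), with medians of -0.42 and -0.30. Among all genes 13.8% and 13.7% were called lower. Fkbp11, a prolyl isomerase of secretory cells, ranged from 24.6 to 28.4 CPM in control cultures, from 8.92 to 12.1 CPM with MYO5BΔIEC and from 9.55 to 17.6 CPM with MYO5B(G519R), and fell by 1.27 ± 0.15 (edgeR adjusted p = 0.00140) and 0.88 ± 0.18 (edgeR adjusted p = 0.00725). Ssr4, a translocon-associated subunit, fell by 1.11 ± 0.18 in MYO5BΔIEC (edgeR adjusted p = 0.00242) and Ostc, an oligosaccharyltransferase subunit, by 0.90 ± 0.18 in MYO5B(G519R) (edgeR adjusted p = 0.00708). The counts rested on several cultures. The 12 calls in MYO5BΔIEC became 15 without control 1, 6 without control 2, 3 or 4 or MYO5BΔIEC culture 2, and 7 without MYO5BΔIEC culture 1. The 13 calls in MYO5B(G519R) became 20 without control 1, 8 without control 2 or 4 or MYO5B(G519R) culture 3, and 5 without control 3 or MYO5B(G519R) culture 1 or 2. With the length trend removed, 12 genes were called lower and 2 higher in MYO5BΔIEC, and 10 and 4 in MYO5B(G519R), with medians of -0.36 and -0.19.

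Of 15 genes of granule exocytosis, 3 were higher and 0 lower in MYO5BΔIEC, and 3 higher and 1 lower in MYO5B(G519R), no larger a share than the 27.4% and 26.8% of all genes. Unc13d, a vesicle priming factor, was at 2.15 to 8.28 CPM in control cultures and 9.08 to 13.7 CPM with MYO5BΔIEC (log2 fold change 1.36 ± 0.35, edgeR adjusted p = 0.0164). The MYO5BΔIEC count was 5 without control 1 and 0 without control 3 or MYO5BΔIEC culture 2. The MYO5B(G519R) count was 8 without control 1, 0 without control 2, 3 or 4 or MYO5B(G519R) culture 1, 1 without its culture 2 or 3 and 2 without its culture 4. With the length trend removed the splits were 3 and 1, and 3 and 2. Against vehicle, all 15 had a positive log2 fold change with Compound-1, with a median of 0.21, and none was called. With Compound-1 against control, 6 of the 15 were called higher, where 15.7% of all genes were, a count that was 2 without control 2, 3 or 4 and 3 without treated culture 3 or 4. Among the other goblet markers Fer1l6, a ferlin family gene, was at 13.7, 8.30, 53.5 and 28.5 CPM with Compound-1, 5.52 to 7.68 CPM with vehicle and 1.30 to 2.12 CPM in control cultures, with the treated cultures above all others. Its log2 fold change was 3.87 ± 0.54 against control (edgeR adjusted p = 0.00398) and 1.94 ± 0.46 against vehicle (edgeR adjusted p = 0.532).

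**Figure D5:**
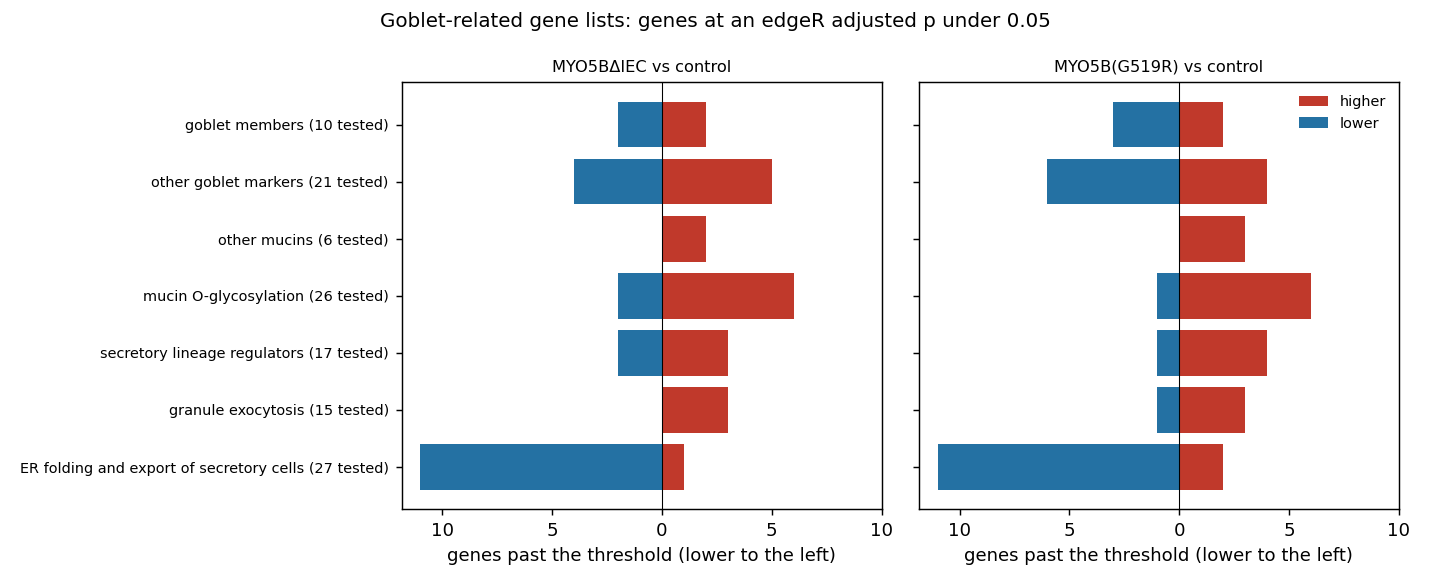
Number of genes called by edgeR (adjusted p under 0.05), higher (right) and lower (left) than control, in the 10 goblet cell genes and 6 related lists, for MYO5BΔIEC and MYO5B(G519R). The folding and export list has 11 lower genes in each comparison. In MYO5B(G519R) the goblet cell genes have 2 higher and 3 lower, and the other goblet markers 4 higher and 6 lower. Elsewhere the lists are split or lean to higher.

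Markers of Paneth cells, the granular secretory cells of the crypt base, were read beside these. Of 16 Paneth cell markers 0 were higher and 3 lower in MYO5BΔIEC, and 0 and 4 in MYO5B(G519R), with medians of -0.56 and -0.85, where 13.8% and 13.7% of all genes were called lower. With the length trend removed the splits were 2 and 1, and 0 and 1, with medians of 0.21 and -0.05, and without control culture 1 they were 0 and 8, and 0 and 14. The MYO5BΔIEC count was 1 without control 2, 3 or 4 or MYO5BΔIEC culture 2 or 4, and the MYO5B(G519R) count 1 without control 2 or 3 or MYO5B(G519R) culture 1 or 2 and 2 without control 4. The summed Paneth level was 3571 CPM in control 1 and 7612 to 8843 CPM in controls 2 to 4. It was 3423 to 5138 CPM with MYO5BΔIEC and 3619 to 4607 CPM with MYO5B(G519R), with Lyz1 the most abundant in each culture and no marker at 0. The part of Paneth cell RNA in the levels of Agr2 and Spink4 was not tested.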

How the data were processed

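RNA-seq libraries of 16 enteroid cultures were analysed from 2 deposited tables, 1 of raw counts and 1 of FPKM values per gene and culture, with 0 sample columns left unassigned. Per the labels, the authors aligned poly-A reads to GRCm38/mm10 with STAR 2.5 (TopHat is also named) and counted reads per gene with HTSeq 0.6.1. The deposited FPKM values are these counts divided by gene length and a library size. How strand and multi-mapping reads were treated is not given in the sources used here, so near-identical copies such as Muc3 and Muc3a are uncertain.

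Each comparison kept genes that reached 10 counts in 2 or more of its 8 libraries, tested with edgeR 4.0.16 (R 4.3.3, TMM scaling, quasi-likelihood F test). P-values were adjusted by Benjamini-Hochberg over all genes tested (threshold 0.05). Levels are TMM-scaled CPM. P-values measure the spread between cultures. Alternatives used DESeq2 1.42.0, limma 3.58.1 on log2(FPKM + 1) and log2(FPKM + 0.1), other scalings, filters and fits, the replicate number as a block, each culture left out, and removal of a lowess trend (span 0.3) of expression on gene length in each culture. The test was tried on simulated data with 200 changed genes. No 2 cultures agreed within sampling noise. The 10 genes and the gene lists were chosen with earlier results of these data known. From each further list at most 2 higher and 2 lower genes per comparison with control were named, those past the threshold with the smallest p and at least 1 FPKM in 1 group. Genes most like Muc2 were the 10 with the highest Pearson r of log2 CPM.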

Additional observations from a re-analysis of the deposited data

Results flagged for a closer look

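On the log2 scale, in 3 of the 40 checks of a gene within a group, 1 culture lay far from the other 3, and each time it was control culture 1. Muc2 was at 182 CPM there, against 38.0 to 48.4 CPM in the other controls, a gap that made up 0.845 of the log2 range of the group and 0.927 of that in CPM. Zg16 was at 3.57 CPM against 68.3 to 93.1 CPM (0.905 of the log2 range and 0.723 of that in CPM), and Muc13 at 257 CPM against 718 to 757 CPM (0.950 of the log2 range and 0.921 of that in CPM). In CPM the Zg16 gap of the controls did not pass the limit used, whereas those of Fcgbp in control culture 1 (0.895), Tff3 in MYO5BΔIEC culture 2 (0.832) and Zg16 in MYO5BΔIEC culture 1 (0.883) did. Chance alone sets apart about 1 in 20 groups by this measure, and the 3 values in control culture 1 that passed on the log2 scale come from 1 library and are not independent of each other.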

How the results depend on the processing

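The number of goblet cell genes called kept within 1.5 times its value under every alternative run, with 3 exceptions besides single cultures. With the length trend removed 3 genes were called in MYO5B(G519R) and 2 in Compound-1-treated MYO5BΔIEC against control, and DESeq2 called 1 for Compound-1 against vehicle. Leaving out 1 culture gave 3 to 6 calls in MYO5BΔIEC against control, 3 to 7 in MYO5B(G519R), 3 to 5 with Compound-1 against control, and 0 in the other 2 comparisons. Same-numbered cultures of different groups did not deviate together throughout (r from -0.24 to 0.56), so the numbers were not taken as a pairing. With the replicate block the counts were 3 in MYO5BΔIEC, 4 in MYO5B(G519R), 0 for Compound-1 against vehicle, 3 for Compound-1 against control and 0 between the MYO5B models.

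Some log2 fold changes changed sign. Most were near 0 and not called. In MYO5BΔIEC against control, Muc13 stood at -0.00093 with mitochondrially encoded genes left out of library sizes, -0.016 with no filter, -0.0052 with all 4 groups in 1 fit and -0.26 to 0.11 with 1 culture left out. Zg16 stood at 0.072 with the block, 0.51 and 0.59 by limma on FPKM, 0.49 with the length trend removed and -0.47 to 0.27 with 1 culture left out. Removing the length trend gave Tff3 0.30 and Spink4 0.17 in MYO5BΔIEC, Tff3 0.13 in MYO5B(G519R), and Tff3 0.66 and Spink4 0.25 with Compound-1 against control. Of these, Spink4 in MYO5BΔIEC, Tff3 in MYO5B(G519R) and Spink4 with Compound-1 had been called lower as deposited. These 2 genes are the shortest of the 10. With 1 culture left out, Zg16 ranged from -0.16 to 0.50 in MYO5B(G519R). For Compound-1 the ranges against vehicle were -0.089 to 0.21 for Spink4 and -0.031 to 0.29 for Muc13, and against control -0.039 to 0.32 for Muc13 and -0.067 to 0.22 for Atoh1. Between the MYO5B models they were -0.067 to 0.12 for Fcgbp, -0.16 to 0.16 for Clca1, -0.048 to 0.67 for Zg16, -0.096 to 0.026 for Tff3, -0.057 to 0.35 for Spdef and -0.28 to 0.021 for Spink4. The cause was not tested. The lowest count of a goblet cell gene was 114, so depth limited none of the 10.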

Other observations

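Other cell types of the enteroids also differed from control. Among 9 tuft cell markers tested, 0 were called higher and 2 lower in MYO5BΔIEC, and 0 and 3 in MYO5B(G519R), and the lowest count with 1 culture left out was 1 in each, for MYO5BΔIEC without control 4 or its culture 2 and for MYO5B(G519R) without any culture other than control 3 or its culture 4. Rgs13, a regulator of G-protein signalling, fell by 1.81 on the log2 scale in MYO5BΔIEC (edgeR adjusted p = 0.00289) and by 1.64 in MYO5B(G519R) (edgeR adjusted p = 0.00348). Of 9 stem cell markers, 1 was called higher and 2 lower in MYO5BΔIEC, and 1 and 1 in MYO5B(G519R). Without control culture 1 these splits were 2 and 2, and 4 and 2, and the MYO5B(G519R) count was 1 without control 4 or MYO5B(G519R) culture 2. Olfm4 fell by 2.26 (edgeR adjusted p = 0.00896) and 1.63 (edgeR adjusted p = 0.0174), and Rnf43, a ubiquitin ligase that restrains Wnt signalling, rose by 0.61 (edgeR adjusted p = 0.00821) and 0.54 (edgeR adjusted p = 0.00620). Of 16 enterocyte markers, 3 were called higher and 0 lower in MYO5BΔIEC, and 2 and 2 in MYO5B(G519R). Without control culture 1 they were 3 and 3, and 2 and 6, and the MYO5B(G519R) split was 2 and 0 without control 2, 3 or 4 or MYO5B(G519R) culture 1, 2 or 3. The brush border genes Anpep and Vil1 rose, by 1.58 and 1.08 in MYO5BΔIEC (edgeR adjusted p = 0.00140 and 0.00380) and by 1.23 and 0.90 in MYO5B(G519R) (edgeR adjusted p = 0.00247 and 0.00622). The brush border genes Sis and Slc2a5 fell in MYO5B(G519R), by 1.10 and 1.07 (edgeR adjusted p = 0.0464 and 0.0439). Of 16 enteroendocrine markers, 2 were called higher and 0 lower in MYO5BΔIEC, and 1 and 2 in MYO5B(G519R). The MYO5BΔIEC count was 1 without any culture other than control 1 or MYO5BΔIEC culture 1, and the MYO5B(G519R) count was 1 without control 3 or MYO5B(G519R) culture 1 or 3 and 0 without control 4 or MYO5B(G519R) culture 2. The granule gene Chga rose by 1.24 in MYO5BΔIEC (edgeR adjusted p = 0.0116) and 0.78 in MYO5B(G519R) (edgeR adjusted p = 0.0412), whereas the hormone genes Gcg and Tac1 fell in MYO5B(G519R), by 0.66 and 0.74 (edgeR adjusted p = 0.0180 and 0.0430). The calls of the named genes held with any 1 culture left out, except in MYO5B(G519R) those of Olfm4 and Gcg, which held in 6 of 8 each, and of Sis, Slc2a5, Chga and Tac1, which held in 1 of 8 each. Of 10 proliferation markers, 0 were called higher and 6 lower in MYO5BΔIEC, and 1 and 4 in MYO5B(G519R). With 1 culture left out, the number called ranged from 4 to 6 and from 1 to 6. Of 9 epithelial genes, 5 were called higher and 0 lower in MYO5BΔIEC, and 4 and 0 in MYO5B(G519R). Their number ranged from 2 to 6 and from 1 to 6 with 1 culture left out. Over all genes 27.4% and 26.8% were called, and 7474 and 8146 genes without control culture 1.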
